A study of Mus musculus with 4 samples.

Results

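The genes of bicarbonate reclamation and ammoniagenesis described here are 9: the sodium-proton exchanger Slc9a3, the sodium-bicarbonate cotransporter Slc4a4, the carbonic anhydrases Car2, Car4, Car12, Car14 and Car15, the glutamine transporter Slc38a3 and the glutamate dehydrogenase Glud1. They were chosen by name, with earlier results of these data known, from the 29190 genes of the count table. Each symbol stood on a single row. All 9 passed the filter on low counts, with at least 226 counts in every library. RNA of whole kidney was measured in 4 libraries from 8-week-old male C57 mice (the substrain is not given). In 2 libraries the mice had received cisplatin at 30 mg/kg, and in the other 2, the controls, physiological saline. The labels speak of 18 mice in 3 groups, with kidneys taken 24 h or 48 h after cisplatin. They do not tie the cisplatin libraries to either time and do not say whether kidneys were pooled. The design text calls the 2 libraries of a group biological replicates, and no genotype or further agent is named for either group.

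The kidney tubule recovers nearly all filtered bicarbonate, most of it in the proximal tubule. There the apical exchanger NHE3 (Slc9a3) secretes protons in exchange for sodium, carbonic anhydrase facing the lumen turns carbonic acid into carbon dioxide and water, cytosolic carbonic anhydrase II (Car2) remakes bicarbonate inside the cell, and the basolateral cotransporter NBCe1 (Slc4a4) returns it to the blood. The same cells make new bicarbonate from glutamine, which enters across the basolateral membrane through SNAT3 (Slc38a3) and gives up its nitrogen as ammonium, in part through glutamate dehydrogenase (Glud1). Cisplatin, a cancer drug taken up by tubule cells, is toxic to the proximal tubule.

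The DNA before the start sites of members with contrasting changes is shown because these genes differ in promoter composition. RefSeq (GRCm38.p6) gave start sites for 7 of the 9 members, and Car2 and Slc38a3 are named only. Each line holds the 250 bases before the start, read 5′ to 3′ on the strand of the gene, with CG dinucleotides in capitals. The lines are for Car14, whose level changed the most, the upstream and the downstream start of Slc4a4, and Glud1, whose level changed the least.
Car14, chr3:95904686-95904935, minus strand: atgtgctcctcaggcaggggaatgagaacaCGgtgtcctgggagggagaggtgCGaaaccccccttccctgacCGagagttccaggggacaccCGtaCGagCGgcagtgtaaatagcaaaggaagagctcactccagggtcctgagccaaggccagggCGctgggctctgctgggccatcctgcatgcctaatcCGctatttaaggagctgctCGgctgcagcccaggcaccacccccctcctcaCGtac
Slc4a4 upstream start, chr5:88887010-88887259, plus strand: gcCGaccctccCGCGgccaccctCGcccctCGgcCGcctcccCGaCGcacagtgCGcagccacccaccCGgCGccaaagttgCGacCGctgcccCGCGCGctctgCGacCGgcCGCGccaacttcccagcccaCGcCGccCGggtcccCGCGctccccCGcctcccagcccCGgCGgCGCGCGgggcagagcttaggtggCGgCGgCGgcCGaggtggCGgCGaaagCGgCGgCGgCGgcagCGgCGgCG
Slc4a4 downstream start, chr5:89027716-89027965, plus strand: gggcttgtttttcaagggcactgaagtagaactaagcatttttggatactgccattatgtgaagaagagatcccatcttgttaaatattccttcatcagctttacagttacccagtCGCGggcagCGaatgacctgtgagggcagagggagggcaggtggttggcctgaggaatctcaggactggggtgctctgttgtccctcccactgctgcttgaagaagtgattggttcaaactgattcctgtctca
Glud1, chr14:34310477-34310726, plus strand: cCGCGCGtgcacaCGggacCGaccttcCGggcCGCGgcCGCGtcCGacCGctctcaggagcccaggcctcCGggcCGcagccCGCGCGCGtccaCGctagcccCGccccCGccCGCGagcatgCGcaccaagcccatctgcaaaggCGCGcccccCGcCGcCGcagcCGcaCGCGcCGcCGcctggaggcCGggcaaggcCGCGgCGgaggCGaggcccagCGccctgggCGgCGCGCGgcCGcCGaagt
The Glud1 window held 46 CG dinucleotides and the upstream Slc4a4 window 44, whereas the Car14 window held 10 and the downstream Slc4a4 window 3. The windows of Slc9a3, Car4, Car12 and Car15 held 19, 11, 6 and 4. Among tested genes with 10 or fewer CG dinucleotides in the window (the richest window where a gene had several), 814 of 3538 (23.0%) fell at least 2-fold, against 189 of 1404 (13.5%) with 30 or more. As a whole the first class was not lower, with a median log2 fold change of 0.08 against -0.03 in the last. Car12, Car14 and Car15 belong to the first class and Glud1 and Slc4a4 to the last, while Slc9a3 and Car4 lie between (11 to 29), where 922 of 6499 (14.2%) fell so far. Neither the half-site of HNF1 (GTTAAT or ATTAAC) nor the core of HNF4 (CAAAGTCCA or TGGACTTTG) occurred in the 8 windows of the members. Over all 32851 windows of this length, the shares with these letters on either strand were 6.43% and 0.384%. They were 4.63% and 0.377% over the 14599 windows of tested genes, and 7.71% and 0.565% over the 2476 windows of tested genes that fell at least 2-fold. The counts are per gene, so use of the upstream and the downstream start of Slc4a4 cannot be told apart.

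Library totals ranged from 20662475 to 27122403 counts. Levels are given as CPM, counts scaled to a library total that TMM (trimmed mean of M values) corrects for library composition, and a fold change as log2 of cisplatin over saline. Tests are edgeR's quasi-likelihood test with Benjamini-Hochberg adjustment over the 17419 genes tested. Calls are adjusted p-values under 0.05. The scaling matters for small changes, since it moved the median over all tested genes, which lay at 0.04 (log2) under TMM, at 0.16 under upper-quartile factors, at 0.41 with library size alone and at 0.28 in FPKM (fragments scaled by gene length and library total, plus 0.1). Of the called genes 6333 were lower and 6487 higher with TMM, but 4207 and 9110 on library size alone, and 4252 and 7917 in FPKM. Markers of proximal tubule (Lrp2), thick limb (Umod), principal cells (Aqp2) and podocytes (Podxl) were all present, as whole kidney should hold.

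With TMM scaling all 9 members were lower after cisplatin, by almost 15-fold at most, but for Car2 and Glud1 the direction depended on the scaling. Car14 (14.8-fold lower), Slc4a4 (8.43-fold), Car4 (5.61-fold) and Car12 (5.58-fold) stood far from Car2 (1.28-fold) and Glud1 (1.25-fold), with Slc38a3, Slc9a3 and Car15 between them. All 9 were called lower (largest adjusted p = 0.000225, edgeR quasi-likelihood), where 36.4% of tested genes were called lower and 73.6% in either direction. All 9 were also called lower with upper-quartile scaling (32.3% of tested genes) and by DESeq2 (32.8%). With TMM a fall of at least 2-fold was found for 6 of the 9, against 16.1% of tested genes. The median log2 fold change of the members was -1.55. In none did the libraries of the groups overlap in TMM-scaled CPM, as was so for 41.7% of tested genes in the lower direction and 86.3% in either direction. In FPKM the groups did not overlap for 7 of the 9, each lower after cisplatin, against 30.9% of tested genes in that direction. Both the calls and the direction of Car2 and Glud1 rested on the scaling. Their log2 fold changes were 0.01 and 0.05 when libraries were scaled by size only. With library size alone or with FPKM, 7 of the 9 were called lower, where 24.2% and 24.4% of tested genes were (24.5% with a pseudocount of 1). In whole-kidney RNA, fewer cells of a type and less RNA per cell cannot be told apart. All 10 proximal tubule markers were lower in the same libraries, with a median log2 fold change of -2.66. Slc4a4 and Car14 were lower by more than that median and the other 7 members by less, and the part of this shift in the members' levels was not tested.

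**Figure D1:**
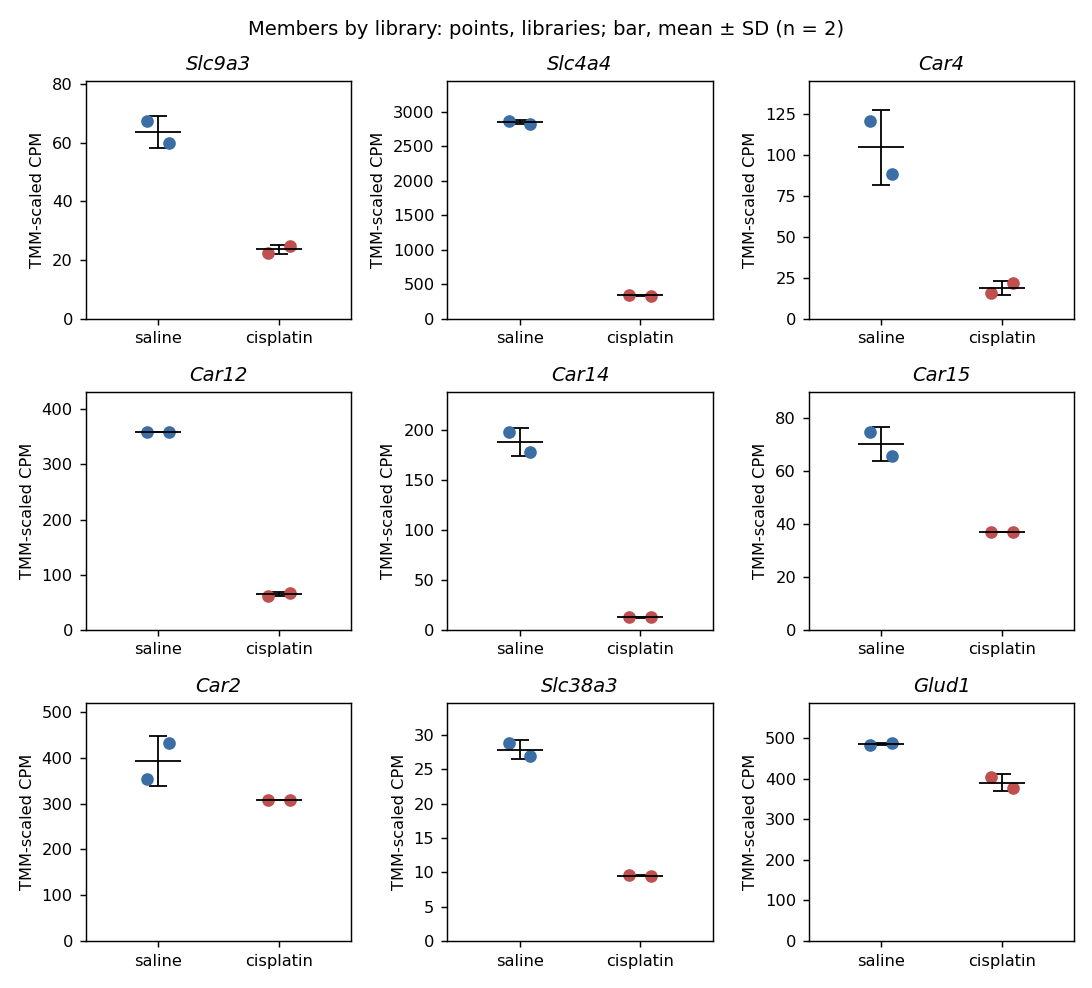
TMM-scaled CPM (vertical axes, each from 0) of the 9 members in the saline and cisplatin libraries; points are libraries, and bars the mean ± SD of 2. Car14 and Slc4a4 show the widest gaps relative to their level, and Car2 and Glud1 the narrowest.

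In whole-kidney RNA, the transcripts of the apical exchanger and the basolateral cotransporter were both lower after cisplatin, the latter by more. Slc9a3 (ENSMUSG00000036123.6, chromosome 13, 74121457 to 74169442, plus strand, GRCm38) stood at 22.5 and 24.8 CPM after cisplatin and at 67.5 and 59.8 CPM after saline. The highest cisplatin library thus lay well below the lowest saline library. The log2 fold change was -1.43 (SE 0.08; edgeR quasi-likelihood, adjusted p = 3.59e-12). Of all tested genes, 9.74% had a lower value. Slc4a4 (ENSMUSG00000060961.12, chromosome 5, 88886818 to 89239653, plus strand), which carries sodium and bicarbonate out together, stood at 344 and 332 CPM after cisplatin and at 2872 and 2826 CPM after saline. The libraries of each group lay close together and the groups far apart. Its log2 fold change was -3.07 (SE 0.06; edgeR quasi-likelihood, adjusted p = 2.69e-19), and 224 of the 17419 tested genes, or 1.29%, had a lower value.

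The ratio of these transporters within a library does not depend on scaling. The log2 ratio of Slc9a3 to Slc4a4, from FPKM, was -1.89 and -1.70 after cisplatin but -3.37 and -3.52 after saline. Slc9a3 was thus higher relative to Slc4a4 in each cisplatin library than in each saline library, by 1.65 on the log2 scale. Whole-kidney RNA does not tell which cells held each transcript, so this is not a ratio within a cell type. An exact permutation test of 2 against 2 libraries cannot give a two-sided p below 0.33, so no p is given for this or the other ratios and shares.

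The 4 membrane-bound carbonic anhydrases did not fall by like amounts. Car14 and Car12 encode isoforms that span the membrane with their active site outside, and Car4 and Car15 isoforms held by a lipid anchor. Car14 (ENSMUSG00000038526.12, chromosome 3, 95897768 to 95904691, minus strand) stood at 12.3 and 13.0 CPM after cisplatin and at 197.8 and 177.9 CPM after saline. Both cisplatin libraries lay far below the saline libraries, the widest gap of the 9. The log2 fold change was -3.89 (SE 0.07; edgeR quasi-likelihood, adjusted p = 2.88e-19), with 86 tested genes (0.494%) lower still. The annotation places Aph1a, a subunit gene of gamma-secretase, on the opposite strand across the last bases of Car14 (95897768 to 95898288). Aph1a stood at 39.6 and 43.3 CPM after cisplatin and 50.2 and 45.6 CPM after saline. Whether the counting used strand is not given, and the part of shared reads in either gene was not tested.

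Car12 (ENSMUSG00000032373.12, chromosome 9, 66713686 to 66766845, plus strand) stood at 62.0 and 66.8 CPM after cisplatin and at 359.4 and 359.3 CPM after saline. The saline libraries were nearly equal and both cisplatin libraries far below them, a difference of -2.48 in log2 (SE 0.06; edgeR quasi-likelihood, adjusted p = 1.76e-17). Car4 (ENSMUSG00000000805.16, chromosome 11, 84957786 to 84966044, plus strand) stood at 15.5 and 21.6 CPM after cisplatin and at 120.9 and 88.6 CPM after saline. It had the widest spread of the 9 members relative to its mean, yet the groups did not overlap. The log2 fold change was -2.49 (SE 0.13; edgeR quasi-likelihood, adjusted p = 7.02e-13), and it lay between -2.75 and -2.26 when each library was left out in turn. Car15 (ENSMUSG00000090236.2, chromosome 16, 17835276 to 17838364, minus strand) changed the least of the 4, from 74.7 and 65.6 CPM to 37.0 and 36.9 CPM. With TMM the difference of -0.92 in log2 (SE 0.07, edgeR quasi-likelihood, adjusted p = 5.09e-10) lay just short of a 2-fold fall. It was smaller with library size alone (-0.55) and in FPKM plus 0.1 (-0.65). The gene model Gm20518 covers nearly all of Car15 on the same strand, so reads of shared exons cannot be told apart. Gm20518 stood at 17.7 ± 0.920 CPM after cisplatin and 23.8 ± 0.0273 CPM after saline (SD, n = 2).

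Car2, the cytosolic isoform, showed a small difference that depended on the scaling. The gene (ENSMUSG00000027562.10, chromosome 3, 14886273 to 14900770, plus strand) stood at 308.0 and 308.1 CPM after cisplatin and at 355 and 433 CPM after saline with TMM. The saline libraries differed from each other by more than the lower of them differed from the cisplatin libraries. The log2 fold change was -0.36 (SE 0.07; edgeR quasi-likelihood, adjusted p = 0.000225), and it was -0.50 without saline replicate 1 and -0.21 without saline replicate 2. In FPKM the cisplatin libraries, at 120 and 118, lay between the saline libraries, at 109 and 146, so the groups overlapped. With library size alone the log2 fold change was 0.01, and the adjusted p was 0.936 by the same test. Red cells are known to hold carbonic anhydrase II too, and in the same libraries the 5 tested markers of the red cell lineage summed to 35.4 and 35.5 CPM after cisplatin against 102 to 110 CPM after saline. Their part in the level of Car2 was not tested.

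The make-up of the carbonic anhydrase transcripts was thus different between the groups. Over the 15 carbonic anhydrase genes with FPKM values, the sum was 190.9 and 191.6 FPKM after cisplatin and 337 and 371 FPKM after saline. Car2 made up 63.1 and 61.8% of this sum after cisplatin and 32.2 and 39.4% after saline. Conversely, Car4, Car12, Car14 and Car15 together made up 23.8 and 25.6% after cisplatin and 59.6 and 52.4% after saline. Neither share overlapped between the groups, and neither depends on how libraries are scaled. Among the membrane isoforms the share of Car14 shifted the most, with 2.68 ± 0.0565% after cisplatin against 17.9 ± 1.33% after saline (SD, n = 2). Car12 went from 15.7 ± 0.00519% to 6.27 ± 0.237%, and Car4 from 13.5 ± 2.94% to 5.34 ± 1.15%. The share of Car15 was little different, at 10.4 ± 0.184% after cisplatin and 8.88 ± 0.813% after saline. That difference of 1.56 percentage points went down to 0.985 without saline replicate 2. The log2 ratio of Car4 to Car2 was -3.80 and -3.33 after cisplatin and -1.05 and -1.78 after saline.

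**Figure D2:**
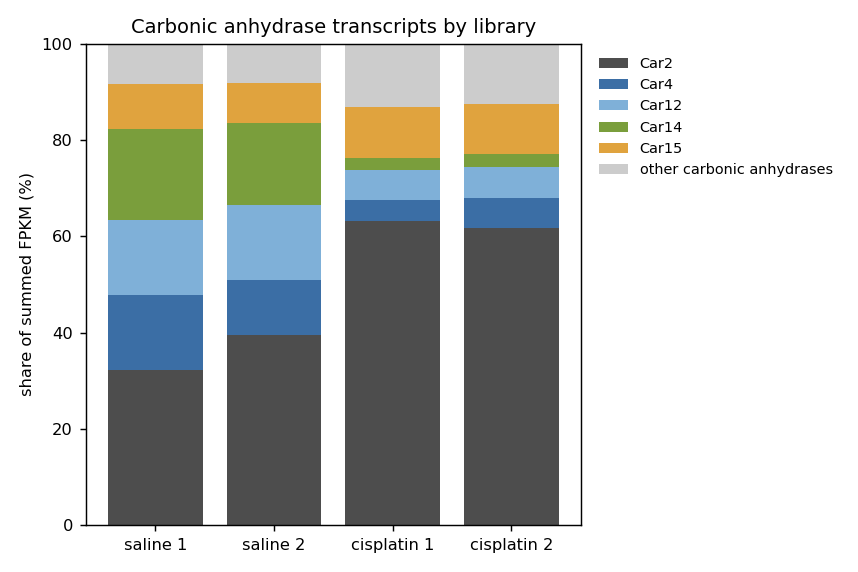
Share of each carbonic anhydrase in the summed FPKM of 15 carbonic anhydrase genes (vertical axis, %) in the 4 libraries; each bar is a library, and the grey part holds the 10 genes that are not members. Car2 takes 32.2 and 39.4% of the saline bars and 63.1 and 61.8% of the cisplatin bars.

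For ammoniagenesis, the glutamine carrier was clearly lower after cisplatin, while glutamate dehydrogenase was close to level. Slc38a3 (ENSMUSG00000010064.13, chromosome 9, 107650634 to 107669530, minus strand) stood at 9.53 and 9.45 CPM after cisplatin and at 28.8 and 26.9 CPM after saline. Both cisplatin libraries were low, on 226 and 245 counts, and well apart from both saline libraries. The log2 fold change was -1.55 (SE 0.10; edgeR quasi-likelihood, adjusted p = 4.41e-11). Glud1 (ENSMUSG00000021794.13, chromosome 14, 34310727 to 34345265, plus strand), which releases ammonium from glutamate in mitochondria, stood at 404 and 375 CPM after cisplatin and at 483 and 488 CPM after saline. With TMM the groups did not overlap, and the log2 fold change was -0.32 (SE 0.06; edgeR quasi-likelihood, adjusted p = 6.38e-05). In FPKM they did overlap, at 86.4 and 78.9 after cisplatin and 80.95 and 89.9 after saline. With library size alone the log2 fold change was 0.05 (adjusted p = 0.579, same test). Stretches of Glud1 transcripts match the pseudogene Glud-ps over 656 bases and the gene model Gm43444 over 287 bases, each at 97.6% identity. Gm43444 had 3 counts in all, and the gene identifier of Glud-ps was not listed in the count table. The log2 ratio of Slc38a3 to Glud1 was -5.53 and -5.44 after cisplatin and -4.19 and -4.30 after saline, free of scaling.

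**Figure D3:**
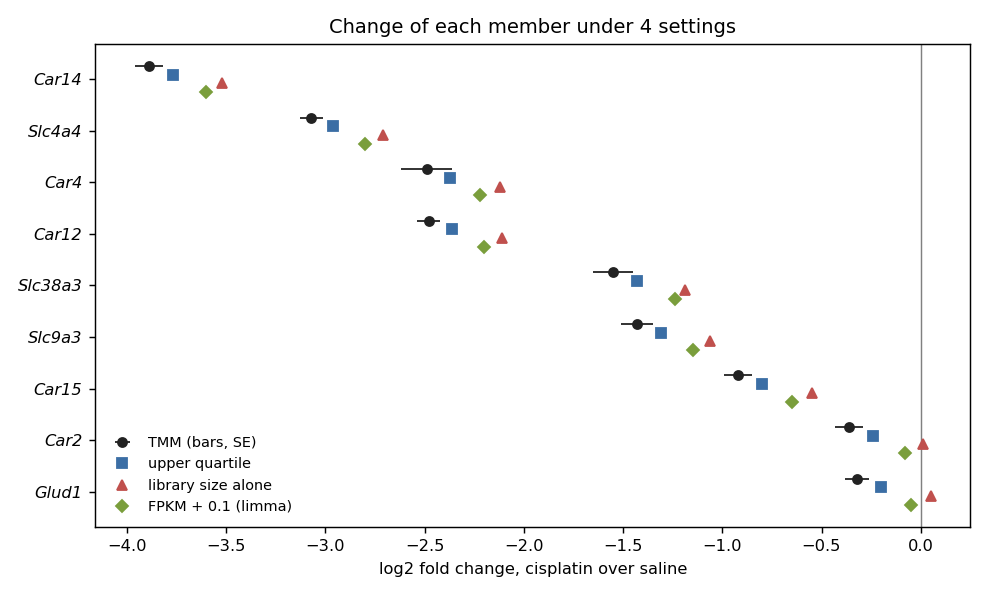
Log2 fold change of cisplatin over saline (horizontal axis) for each member with TMM (bars, SE), upper-quartile scaling, library size alone, and limma on FPKM plus 0.1. The order of the members hardly moves, and Car2 and Glud1 alone reach 0.

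Compared per transcript length, the order of the members changed. In saline libraries the mean FPKM ran from Slc4a4 (160) over Car2 (127), Glud1 (85.4), Car14 (63.1), Car12 (55.6), Car4 (47.6), Car15 (31.3) and Slc9a3 (14.7) to Slc38a3 (4.50). In that order no neighbours overlapped between their libraries, although Car12 (52.9 and 58.3 FPKM) and Car4 (52.7 and 42.5 FPKM) almost touched. After cisplatin Car2 (119) and Glud1 (82.6) led, followed by Slc4a4 (22.8), Car15 (19.96), Car12 (12.0), Car4 (10.2), Slc9a3 (6.58), Car14 (5.13) and Slc38a3 (1.85). Here the ranges of Car12 and Car4 overlapped. Slc4a4 went from the highest to the third place and Car14 from the fourth to the eighth, while Slc38a3 was lowest in both groups.

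**Figure D4:**
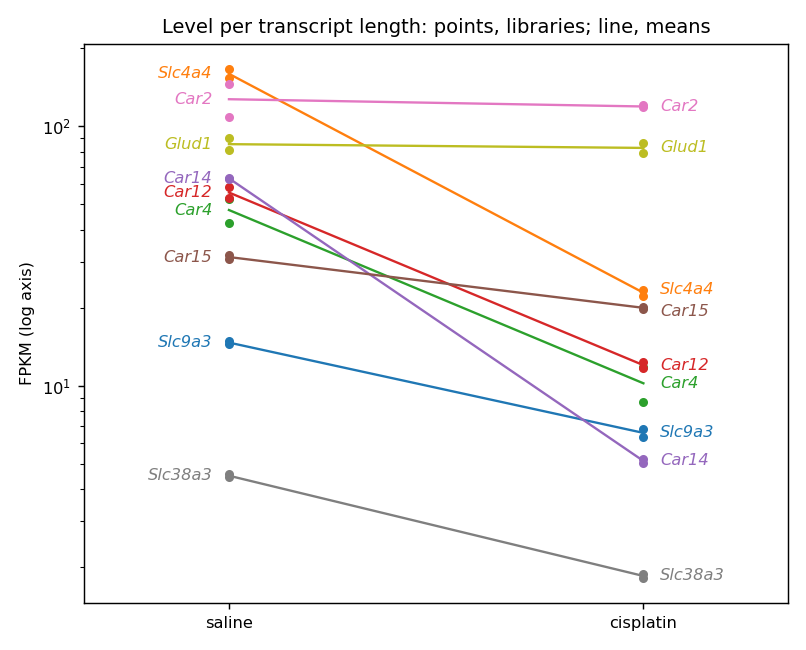
FPKM (vertical log axis) of the 9 members in saline and cisplatin kidneys; points are libraries, and lines join the means of 2. Slc4a4, at 160 FPKM in saline, falls below Car2 and Glud1 after cisplatin, and Car14 drops from 63.1 to 5.13 FPKM.

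Partners of the proximal transport steps mostly fell, like the members. Of 12 such genes 10 were called lower and 1 higher, with a median log2 fold change of -1.38 (0.04 over all tested genes, of which 36.4% were lower and 37.2% higher). Pdzk1, a scaffold of apical transporters, went from 1728 ± 0.944 to 235 ± 2.05 CPM, and Slc9a8, the exchanger NHE8, from 121 ± 6.30 to 28.5 ± 0.391 CPM (SD, n = 2). The potassium channel subunits Kcnj16 and Kcnj15 had log2 fold changes of -2.60 and -1.87. Slc9a3r2, a NHERF scaffold that binds NHE3, was the exception that rose, from 30.1 ± 3.32 to 46.5 ± 0.917 CPM. Ezr, which links such scaffolds to actin, was at 325 ± 0.398 CPM after cisplatin and 303 ± 6.16 CPM after saline and was not called. Ezr was called higher with upper-quartile scaling, library size alone and FPKM.

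Relatives of the members in the Slc4 and Slc9 families moved in both directions. Of 14 genes 13 were tested, and 6 were called higher and 3 lower, with a median log2 fold change of 0.14, near the background over all tested genes (37.2% higher, 36.4% lower, median 0.04). The count of higher calls was 4 by DESeq2 and without either cisplatin library, and 7 with library size alone, where 2 were lower. Slc4a11, a transporter of the bicarbonate transporter family, rose from 4.27 ± 0.932 to 42.1 ± 3.15 CPM (log2 fold change 3.33), and the sodium-driven exchanger Slc4a8 rose from 6.98 ± 0.308 to 15.2 ± 2.14 CPM. Slc9a2, the exchanger NHE2, fell from 57.1 ± 1.92 to 20.8 ± 1.25 CPM. The call of Slc9a9 (-0.93) was lost with library size alone (adjusted p = 0.0619, edgeR quasi-likelihood).

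Among the carbonic anhydrases that are not members, 5 of 8 tested genes were lower and 1 was higher, with a median of -0.58. Over all tested genes 36.4% were called lower and 37.2% higher, with a median of 0.04. With library size alone or FPKM plus 0.1, 4 of these carbonic anhydrases were called lower, with medians of -0.22 and -0.31. Car5b, a mitochondrial isoform, went from 122 ± 1.27 to 77.5 ± 1.00 CPM. Car5a, the other mitochondrial isoform, had 47 and 46 counts in the saline libraries and 4 in each cisplatin library, a log2 fold change of -3.72. Car13, a cytosolic isoform, was the exception that rose, from 5.51 ± 0.0875 to 15.3 ± 0.598 CPM. The transmembrane isoform Car9, known as a target of hypoxia signalling, fell from 6.34 ± 0.312 to 1.92 ± 0.0357 CPM.

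Around Slc38a3 and Glud1, genes that use glutamine and its carbon were mostly lower. Of 19 genes 17 were tested, 12 were called lower and 4 higher, with a median of -1.53. Among all tested genes 36.4% were called lower and 37.2% higher, with a median of 0.04. G6pc (-4.40), Slc6a19 (-4.11), Pck1 (-3.48) and Fbp1 (-2.86), in log2 fold change, led the falls. G6pc, Pck1 and Fbp1 are enzymes of gluconeogenesis, the pathway that takes up the carbon left from glutamine, and Slc6a19 carries neutral amino acids from the lumen. Another glutamine carrier of the same family as Slc38a3, Slc38a2, moved against it, from 79.5 ± 0.786 to 171 ± 0.351 CPM. The mitochondrial glutamate carrier Slc25a22 rose too, from 3.84 ± 1.08 to 8.74 ± 0.467 CPM.

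Acid-base genes of the distal nephron were lower in 8 of 9 cases. Their median log2 fold change was -2.02, against 0.04 over all tested genes, of which 36.4% were called lower. The proton pump subunit Atp6v0a4 went from 422 ± 21.9 to 105 ± 5.23 CPM, and its partner Atp6v1b1 had a log2 fold change of -2.02. The ammonia channel Rhcg (-2.15) and the anion exchanger Slc26a4 (-2.41) fell by similar amounts. Of 5 intercalated cell markers, 4 were lower (3 with upper-quartile scaling, library size alone or FPKM) and 1 higher in the same libraries, at a summed 50.2 to 53.2 CPM after cisplatin against 120 to 125 CPM after saline. Foxi1, the transcription factor that specifies intercalated cells, stood at 8.90 ± 0.478 CPM after cisplatin and 9.23 ± 0.505 CPM after saline and was not called, though it was called higher with library size alone.

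Regulators and acid sensors were lower in 8 of 15 cases and higher in 7 with TMM. All tested genes were split about as evenly (36.4% lower, 37.2% higher), but the list median was -0.41 against 0.04. Scaled by library size only, 7 were lower and 7 higher, whereas of all tested genes 4207 were lower and 9110 higher. The median was then -0.04 for the list and 0.41 for all tested genes. The parathyroid hormone receptor gene Pth1r went from 347 ± 24.8 to 36.7 ± 2.92 CPM, and Agtr1a, the receptor of angiotensin II, from 50.4 ± 1.23 to 15.2 ± 1.47 CPM. Hnf4a, a transcription factor of proximal tubule identity, went from 709 ± 22.8 to 119 ± 1.14 CPM. The endothelin gene Edn1 rose from 1.17 ± 0.431 to 12.6 ± 0.514 CPM. The kinase gene Sgk1 rose from 78.3 ± 4.78 to 197.6 ± 0.943 CPM, and the adhesion receptor gene Adgrf5 from 127.9 ± 0.0156 to 250 ± 0.551 CPM. Endothelin and Sgk1 are known to stimulate NHE3 and parathyroid hormone to inhibit it. Agtr1a and other regulators on the list were lower as well, and what these changes did to NHE3 was not tested.

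**Figure D5:**
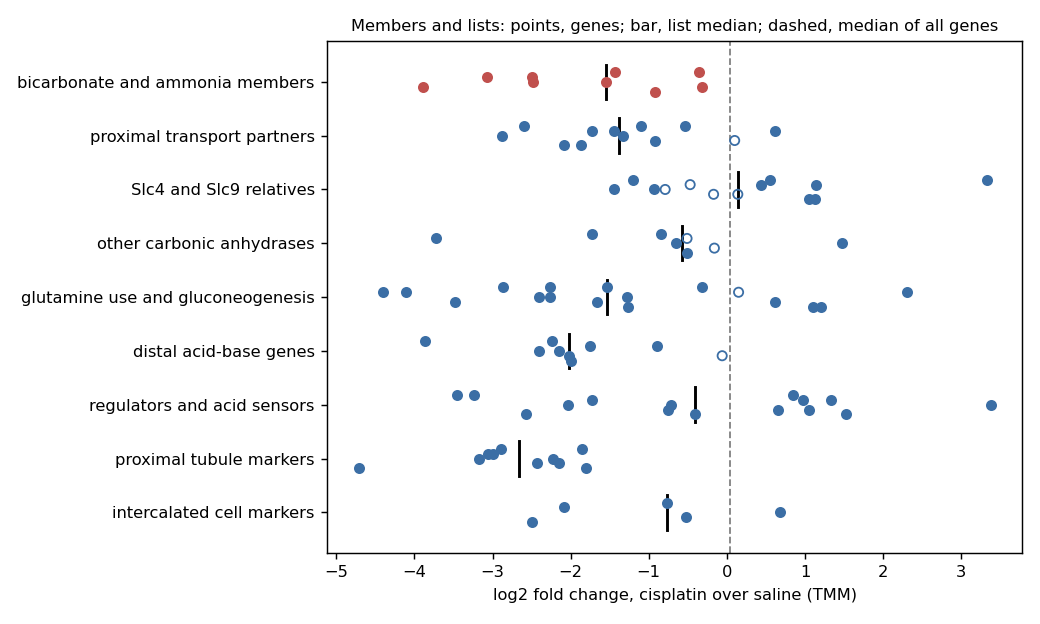
Log2 fold change (horizontal axis, TMM) of the 9 members (top row) and of the genes in 6 pathway lists and 2 marker lists; filled points were called, open points were not, short bars are list medians and the dashed line the median of all tested genes, 0.04. The members' median of -1.55 lies between those of the proximal tubule markers (-2.66) and the intercalated cell markers (-0.77).

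Markers of other cell types moved in the same libraries, where 36.4% of all tested genes were called lower and 37.2% higher. The 10 proximal tubule markers had a summed level of 4019 to 4107 CPM after cisplatin against 22080 to 22540 CPM after saline. All 7 markers of thick limb and distal convoluted tubule were lower, at a summed 2097 to 2171 against 5157 to 5309 CPM. Of 5 principal cell markers 2 were lower and 3 higher, at 155 to 161 against 195 to 198 CPM. Markers of other cells were mostly higher. All 5 fibroblast markers rose (1079 to 1080 against 290 to 307 CPM), as did 4 of 4 podocyte markers (477 to 498 against 329 to 330 CPM) and 4 of 4 tested neutrophil markers (27.5 to 30.1 against 2.83 to 4.06 CPM). Among 6 endothelial markers 4 rose and 1 fell (719 to 729 against 533 to 540 CPM), and among 5 macrophage markers 4 rose and 1 fell (160 to 179 against 64.9 to 72.1 CPM). The falls in these lists, of Kdr and Csf1r, depended on the scaling. Kdr was not called with library size alone or in FPKM, and no macrophage marker was called lower with upper-quartile scaling, library size alone or FPKM. Scaled by library size only, 5 endothelial markers were called higher. Of 3 tested lymphocyte markers 1 rose (2.04 to 2.53 against 1.11 to 1.41 CPM). Ly6g of the neutrophil list was at 0 counts in both saline libraries, and Cd79a of the lymphocyte list in saline replicate 2. All 5 tested red cell markers were lower. The part of these shifts in the levels of the 9 members was not tested.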

How the data were processed

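The authors deposited a table of raw read counts per gene (29190 genes) and a table of FPKM values (29157 genes), each with 1 column per library. Per the submitters' processing notes, GRCm38, TopHat2, bcl2fastq and edgeR were used. How reads were assigned to genes, whether by strand and with which annotation, is not stated in these notes or the labels. Ribosomal RNA was depleted and libraries were directional and paired at 150 nt, per the labels' protocols.

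Counts were filtered with filterByExpr, scaled by TMM and tested with edgeR 4.0.16 in R 4.3.3 (quasi-likelihood, 2 residual degrees of freedom, all 4 libraries, treatment as the sole term). Each SE is the absolute log2 fold change over the square root of F. Alternatives used DESeq2 1.42.0 and limma 3.58.1, the latter on log2(FPKM + 0.1) or log2(FPKM + 1), a scale that understates changes of low genes. Fits were first run on simulated counts in which 200 genes changed, with equal numbers up and down. In the real data 73.6% of tested genes were called, so that run could not check the scaling. Shares and ratios used FPKM.

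Libraries of a group were not copies of each other (chi-square per degree of freedom of 11.5 and 36.6 against counting noise) and were counted as replicates because the design text calls them so; these values do not show whether they came from separate animals. edgeR put the biological coefficient of variation at 6.42%. If libraries of a group came from shared tissue, p-values measure technical spread only. A floor of 3 counts was 0.116 to 0.162 CPM, for counting error only.

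Coordinates are from GENCODE M21 (GRCm38), matched without version suffix, and near-identical transcripts were searched with blastn 2.17.0 (at least 95% identity over 150 bases). The 9 members and the 6 pathway and 11 marker lists were chosen with earlier results of these data known. From each pathway list the text names up to 4 called genes of smallest p and 2 of the rarer direction, and from each marker list the most abundant gene may be named. Uncalled genes named as examples (Ezr, Foxi1) fall outside this rule, and some genes that fall under it are not reported here.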

Additional observations from a re-analysis of the deposited data

How the results depend on the processing

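Each of the 9 members kept its call and its direction under relative log expression factors, upper-quartile scaling, no filter on low counts, 1 CPM required in 2 libraries, DESeq2 and each left-out library, and 7 kept them under every setting run. The exceptions were Car2 and Glud1. With library size alone their log2 fold changes turned to 0.01 and 0.05, and with limma on FPKM they were -0.08 and -0.05 at either pseudocount and were not called (adjusted p of 0.634 or more). These alternatives change the scale of all genes, as the shift of the median gene shows. With library size alone the number of genes called lower was 4207 against 6333. Among proximal transport partners 2 instead of 1 were called higher with upper-quartile scaling, library size alone, the 1 CPM filter and FPKM at both pseudocounts, and among distal acid-base genes 1 instead of 0 with library size alone. From counts per kilobase of annotated exon in place of FPKM, the share of Car12 differed by -7.27 instead of -9.43 percentage points. Leaving out each library gave 11490 to 12504 called genes and 9 called members throughout. The labels give the groups the same replicate numbers, but libraries of the same number did not deviate together (r = -0.02 across genes). With replicate as a block 12653 genes and all 9 members were called, against 12820 and 9 without it. Differences as small as those of Car2 and Glud1 cannot be told from a change of scale.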
